A study of Homo sapiens with 4 samples.

Results

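Developmental transcription factors outside the HOX clusters were followed here by their open chromatin in AMO1, a long-established human line of malignant plasma cells (multiple myeloma). The set holds 43 listed genes that Polycomb commonly keeps silent, of 19974 protein-coding genes in the annotation used. Every listed peak within a gene or 10 kb on either side of it was taken, which gave 76 of the 73729 regions that the 4 peak lists form when overlapping peaks are merged. Open chromatin was measured by ATAC-seq, where a transposase inserts sequencing adapters into accessible DNA, with 1 library in each of 4 groups. The first library came from cells transfected with the empty PCDH vector, which the labels class as WT. The second came from cells transfected with PHF19 plasmids, which they class as PHF19 overexpression. The other 2 libraries repeat both vectors under titles with the prefix IFN, which the labels leave unexplained. All 4 come from AMO1, and the labels do not say whether the transfected cells were a pool or a clone, so clonal differences and the vector's effect cannot be told apart. With 1 library a group, no difference was tested, and the 95% intervals below cover counting error only.

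Polycomb repressive complex 2 methylates histone H3 at lysine 27, and complex 1 compacts the chromatin so marked. Their best known targets are the master regulators of embryonic tissues, which stay silent in a mature lymphoid cell. PHF19 is a Polycomb-like protein that joins complex 2, reads methylated histone H3 at lysine 36 and, like its relatives, binds DNA rich in unmethylated CG dinucleotides. Such CG-rich stretches lie at the starts of most developmental regulators.

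The libraries held 27.4 M (mega) fragments for empty vector, 18.2 M for PHF19 overexpression, 65.9 M for IFN empty vector and 16.4 M for IFN PHF19 overexpression. Values listed without names follow that order. The lowest peak in each list had a summit of 10, 8, 16 and 8 fragments. Height is given below as fragments at the tallest summit per M fragments of the library, so the deepest library could list lower peaks. PHF19 had a narrow peak inside the gene (chr9:120857950-120858284) in the 2 PHF19 overexpression libraries, at 7.9 and 7.33 fragments per M, and none there in either empty vector library. Of 10 plasma cell markers, 9 to 10 per library had a peak at the gene start (or, where the promoter table has no entry, near either gene end), SDC1 at 158 to 314 fragments per M. Among B cell markers CIITA and CR2 had one in every library, and PAX5, CD22 and MS4A1 had none. Only CD3E had one among 6 T and NK cell markers, no myeloid marker of 5 had one, and 3 to 4 of 6 stromal and epithelial markers had one. Summed marker heights ranged from 8.6 to 9.4 fragments per M for B cells, 12.1 to 14.4 for T and NK cells and 11.1 to 14.3 for stroma and epithelium. Their part in the results was not tested.

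Most of these gene starts were closed. The 31 genes with an entry in the RefSeq promoter table (GRCh38.p14) include 3 with a peak over the 300 bases around their start, ISL1, MSX1 and FOXD1, each in all 4 libraries, which is 9.7%. Among all 15812 protein-coding genes of that table, 60.3% had a start peak in at least 1 library. For 12 genes, including VAX2, IRX5 and GATA4, the table has no entry. The sequences below let open and closed starts be compared by eye. The first 3 starts had a peak in all libraries, EN2 and POU4F1 are the listed starts with the most CG and had none, and PAX6 had no peak anywhere in its window. Each runs 5′ to 3′ on the gene's own strand, from 250 bases before the start to 50 after it, and capitals mark CG dinucleotides, which read the same on both strands. MSX1 lies at chr4:4859415-4859714 (plus strand), ISL1 at chr5:51383198-51383497 (plus), FOXD1 at chr5:73448728-73449027 (minus), EN2 at chr7:155457879-155458178 (plus), POU4F1 at chr13:78603503-78603802 (minus) and PAX6 at chr11:31817912-31818211 (minus).
MSX1: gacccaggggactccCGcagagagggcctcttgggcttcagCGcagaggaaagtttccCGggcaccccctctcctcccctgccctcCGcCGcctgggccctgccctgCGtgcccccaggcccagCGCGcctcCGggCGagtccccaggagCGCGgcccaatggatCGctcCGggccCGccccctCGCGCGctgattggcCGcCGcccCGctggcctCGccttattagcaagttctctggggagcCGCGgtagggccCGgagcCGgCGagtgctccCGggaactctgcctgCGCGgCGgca
ISL1: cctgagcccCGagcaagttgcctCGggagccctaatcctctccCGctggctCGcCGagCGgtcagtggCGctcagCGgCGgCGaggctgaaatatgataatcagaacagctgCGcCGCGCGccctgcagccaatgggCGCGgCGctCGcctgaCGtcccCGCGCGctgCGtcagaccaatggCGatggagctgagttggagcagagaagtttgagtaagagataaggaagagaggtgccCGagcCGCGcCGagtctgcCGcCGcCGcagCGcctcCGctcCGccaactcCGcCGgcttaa
FOXD1: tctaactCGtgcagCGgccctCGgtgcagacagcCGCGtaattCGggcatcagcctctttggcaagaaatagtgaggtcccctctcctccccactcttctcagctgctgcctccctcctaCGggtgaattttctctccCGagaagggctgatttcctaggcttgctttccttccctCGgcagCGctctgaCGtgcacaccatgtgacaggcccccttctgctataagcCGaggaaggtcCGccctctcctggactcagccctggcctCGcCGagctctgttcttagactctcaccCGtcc
EN2: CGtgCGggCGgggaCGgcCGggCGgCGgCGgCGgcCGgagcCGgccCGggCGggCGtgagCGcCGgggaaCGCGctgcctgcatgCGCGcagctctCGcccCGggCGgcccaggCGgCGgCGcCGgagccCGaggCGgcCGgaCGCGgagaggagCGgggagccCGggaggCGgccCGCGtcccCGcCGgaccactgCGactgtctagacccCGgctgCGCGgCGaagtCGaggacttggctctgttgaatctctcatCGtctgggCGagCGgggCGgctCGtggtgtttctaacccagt
POU4F1: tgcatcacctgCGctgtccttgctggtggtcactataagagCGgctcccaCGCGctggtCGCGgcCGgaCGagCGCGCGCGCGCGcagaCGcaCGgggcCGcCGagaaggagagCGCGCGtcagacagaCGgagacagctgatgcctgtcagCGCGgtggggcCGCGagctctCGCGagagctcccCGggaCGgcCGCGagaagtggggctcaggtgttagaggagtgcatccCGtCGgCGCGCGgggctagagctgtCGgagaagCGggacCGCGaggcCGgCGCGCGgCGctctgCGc
PAX6: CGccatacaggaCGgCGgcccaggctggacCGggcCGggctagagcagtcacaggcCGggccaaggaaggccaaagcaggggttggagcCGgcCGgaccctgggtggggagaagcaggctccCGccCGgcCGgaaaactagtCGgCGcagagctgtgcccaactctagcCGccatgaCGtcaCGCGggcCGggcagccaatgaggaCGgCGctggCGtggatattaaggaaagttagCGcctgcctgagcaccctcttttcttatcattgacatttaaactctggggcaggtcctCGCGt

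MSX1 has 31 CG in these 300 bases, ISL1 36 and FOXD1 16, against 50 for EN2, 47 for POU4F1 and 24 for PAX6. The median was 24 over the 31 listed genes and 22 over all protein-coding promoters, of which 98.1% hold at least 1 CG. Promoters with at least 24 CG carried a peak in all 4 libraries in 5756 of 7284 protein-coding genes, or 79.0%. Of the 17 listed genes at or above that count, 2 did. The listed genes were put together as Polycomb-silenced genes, so closed starts are close to how they were chosen, and a count of CG says nothing on which protein is bound.

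**Figure D1:**
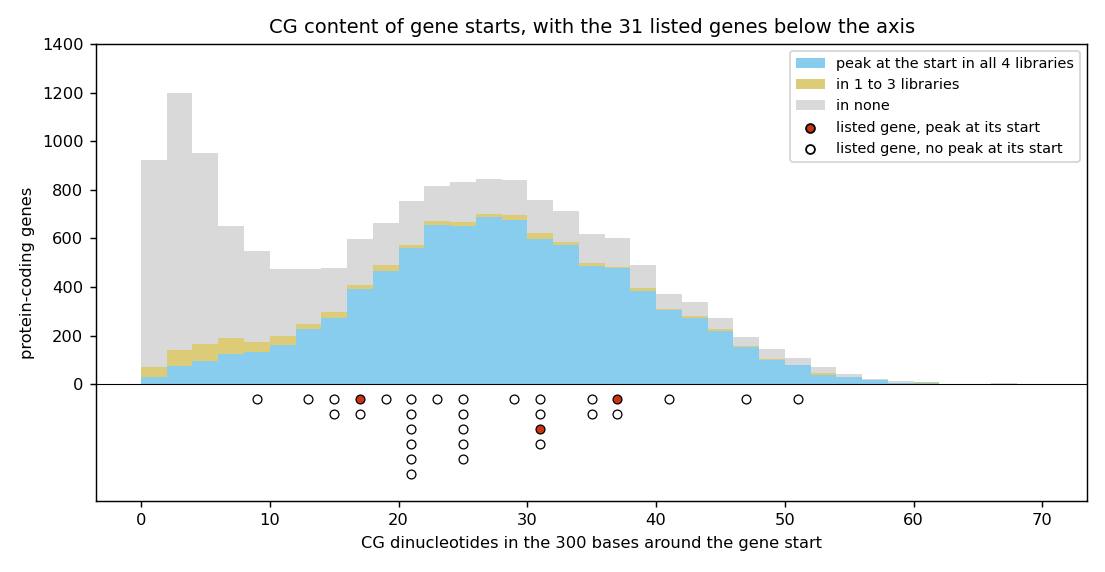
Number of CG dinucleotides in the 300 bases around the start (x axis) of all protein-coding genes in the promoter table (stacked bars, y axis, by the number of libraries with a peak there). The 31 listed genes are dots below the axis, in columns 2 CG wide; 28 are open circles without a start peak and 3 are filled, although their median of 24 CG lies where most gene starts are open.

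A peak somewhere in the window was more common than one at the start. In the 4 libraries 26, 27, 32 and 29 of the 43 genes had one, or 60.5%, 62.8%, 74.4% and 67.4%, against 82.5% to 87.6% of all protein-coding genes. All 4 libraries had one at 21 genes, or 48.8%, against 80.3% of all protein-coding genes. No library had any at 9 genes, or 20.9%, against 11.8% of all protein-coding genes. These 9 were PAX6 (eye, brain and pancreas), TBX15 (skeleton and skin), SIX2 (kidney progenitors), MSX2 (skull and limb), DLX6 (face and bone), POU4F1 and NEUROG1 (sensory neurons), SOX1 (neural progenitors) and GATA6 (heart and endoderm). Of the 76 regions 3 cover the start of one of the 31 genes with an entry, 30 others overlap a gene body and 43 lie in the flanks. Where strand and start are not given, a region at a gene end, as at VAX2, IRX5 and TBX2, counts with the gene body. Median height per library ran from 0.9 fragments per M in the IFN empty vector library to 1.83 in the IFN PHF19 overexpression library, where the medians of all peaks were 1.06 and 2.08. A peak in all 4 libraries was found in 29 regions, or 38.2%, against 48.5% of all regions. The IFN empty vector library alone listed 14 regions, or 18.4%, against 21.6% of all regions.

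**Figure D2:**
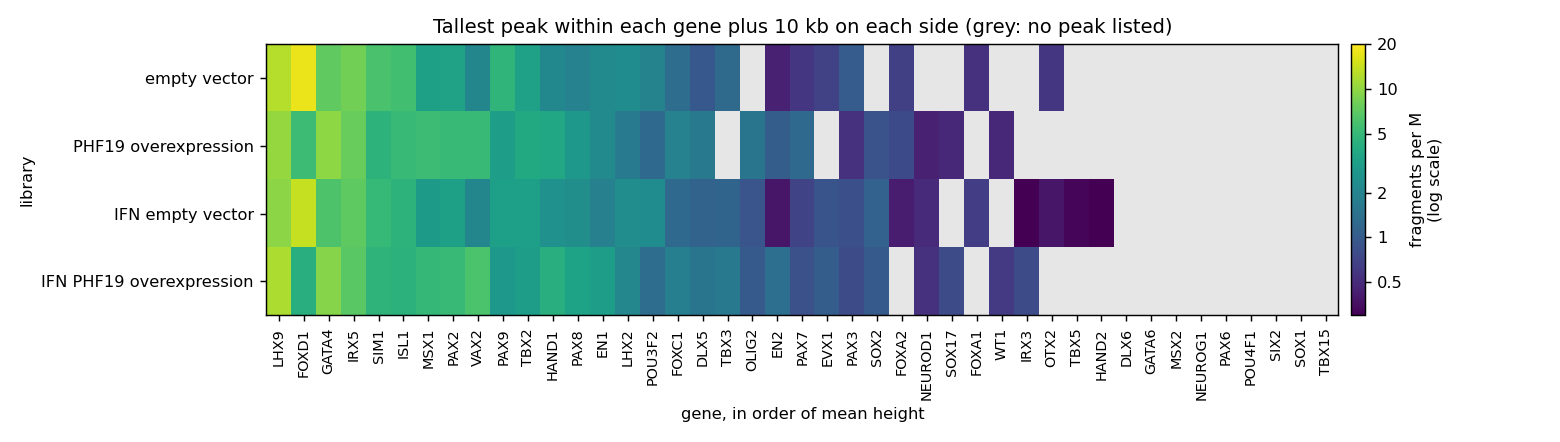
Height of the tallest peak in the window of each of the 43 genes (x axis) in each library (y axis), as colour on a log scale in fragments per M; grey means that no peak is listed. FOXD1 is brightest in the 2 empty vector libraries (17.58 and 13.87), VAX2 is brighter in the 2 PHF19 overexpression libraries (5.05 and 6.05), and 9 genes are grey throughout.

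Some of the tallest regions lay at other genes. Region chr1:197902200-197903430, in the flank of the gonad regulator LHX9, covers the start of C1orf53 and stood at 12.57, 10.37, 9.67 and 11.85 fragments per M. GATA4 (heart and endoderm) has its tallest region at chr8:11769025-11770773, which reaches an end of NEIL2, a DNA repair gene. IRX5 (neural and heart patterning) has chr16:54928490-54931357, which covers the start of the noncoding gene CRNDE and also spans the lower end of IRX5, whose strand is not given here. IRX5 stood at 8.19, 7.52, 7.03 and 6.78 fragments per M. The ISL1 region (heart progenitors and motor neurons), chr5:51382847-51384158, is shared with the noncoding ISL1-DT and stood at 5.59, 5.1, 4.55 and 4.46. SIM1 (hypothalamic neurons) had its tallest region upstream of its start, at 6.03, 4.5, 5.02 and 4.58. In all, 6 of the 76 regions reach a start or end of another gene. Whether a region is exonic or intronic is not given here, since the gene table holds no exons.

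The main question of the design is what differs with PHF19 overexpression, and it can be read in the unprefixed and in the IFN-prefixed pair, which share no library. Ratios of height are on the log2 scale, PHF19 overexpression over empty vector, after subtraction of the median ratio over every region listed in the 2 libraries compared. The median subtracted was -0.11 in the unprefixed pair and 0.17 in the IFN-prefixed pair before centring. The interval is the exact 95% interval for a ratio of 2 counts.

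Among forkhead genes the difference was largest at FOXD1, a regulator of kidney stroma, where the region chr5:73446749-73449695 covers the gene's start. It held 481 fragments at the summit in the empty vector library, 97 with PHF19 overexpression, 914 in the IFN empty vector library and 70 with IFN PHF19 overexpression. Per M these are 17.58, 5.32, 13.87 and 4.27, so both PHF19 overexpression libraries lay far below both empty vector libraries. The log2 ratio was -1.61 (95% interval -1.94 to -1.3) in the unprefixed pair, a height 3.06-fold lower, and -1.87 (-2.24 to -1.51), 3.64-fold lower, in the IFN-prefixed pair. Upstream of the start, chr5:73451103-73451716 stood at 6.69 and 5.64 fragments per M in the empty vector and IFN empty vector libraries, at 2.87 with IFN PHF19 overexpression, and had no listed peak with PHF19 overexpression. The same height would have given 121.9 fragments in that library, where peaks were listed from 8 fragments. Further upstream, chr5:73454300-73454857, inside the noncoding LINC01386, stood at 3.73 and 3.7 in the empty vector libraries and had no listed peak in either PHF19 overexpression library, where that height would have given 67.9 and 60.6 fragments. Neighbouring chromatin was low as well. The median ratio of the 77 regions within 2.5 Mb was -0.74 in the unprefixed pair and -0.8 over 89 regions in the other, which leaves -0.88 and -1.07 for the FOXD1 start.

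The other forkhead genes were lower and differed less. FOXC1, of eye and vessel development, has a region upstream of its start at 1.35, 1.92, 1.27 and 1.83 fragments per M, with ratios of 0.62 (-0.09 to 1.32) and 0.36 (-0.3 to 0.97). Both PHF19 overexpression values exceed both empty vector values, but the intervals include 0. FOXA1, a pioneer factor of endoderm and breast, had a small peak 623 bp beyond its start-side end, inside TTC6, in the 2 empty vector libraries (0.55 and 0.64 fragments per M) and none with PHF19 overexpression, where such a height would have given 10.0 and 10.4 fragments, close to the lowest peaks listed. FOXA2, its relative in endoderm and floor plate, had peaks of 0.66, 0.77 and 0.42 fragments per M in the first 3 libraries.

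Of the homeobox genes, VAX2, which patterns the ventral eye, stood out on the higher side. Its region chr2:70899922-70901019 spans the lower end of the gene and held 56, 92, 136 and 99 fragments at the summit. Scaled to depth, these are 2.05, 5.05, 2.06 and 6.05 fragments per M, nearly equal in the 2 empty vector libraries and higher in each PHF19 overexpression library. The log2 ratios were 1.41 (0.92 to 1.92) and 1.38 (0.99 to 1.77), or 2.66-fold and 2.61-fold higher. A second region inside the gene, chr2:70919601-70920437, was also higher, at 1.24, 2.03, 1.41 and 2.5 fragments per M with ratios of 0.82 (0.11 to 1.54) and 0.66 (0.09 to 1.2). The surrounding 2.5 Mb had medians of 0.14 to 0.16, which leaves 1.26 and 1.23 for the region at the lower end, and 0.68 and 0.51 for the inner one.

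**Figure D3:**
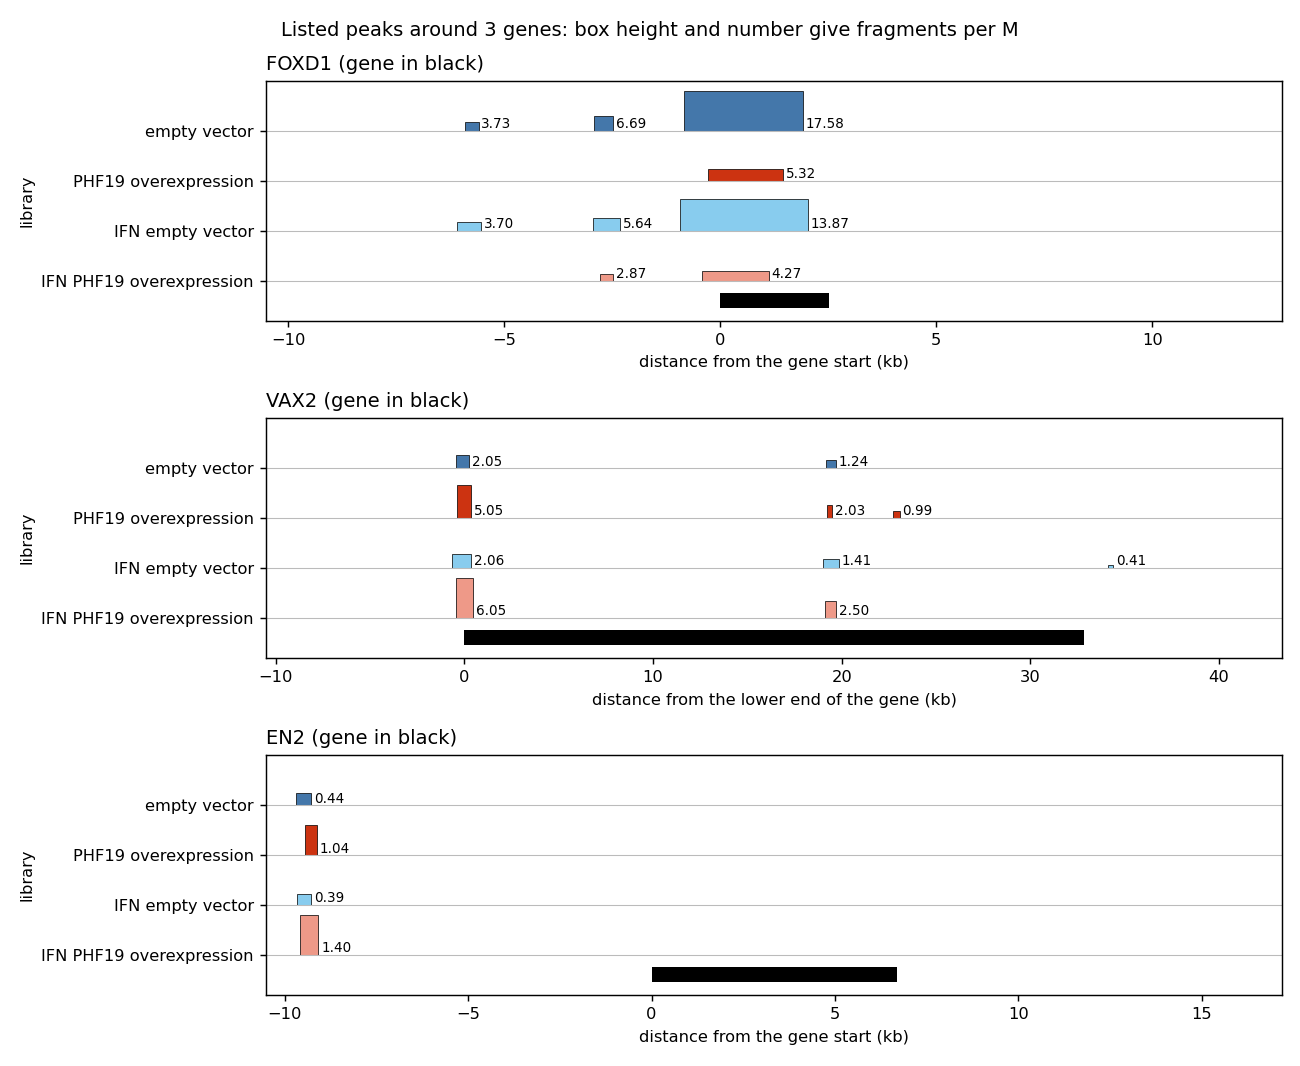
Listed peaks in the windows of FOXD1, VAX2 and EN2 in each library, drawn to scale against distance from the gene start or, for VAX2, from the lower end of the gene (x axis, kb). Box height, scaled within each gene, and the number beside it give fragments per M; the FOXD1 start stands at 17.58 and 13.87 with empty vector against 5.32 and 4.27 with PHF19 overexpression, and the VAX2 end at 2.05 and 2.06 against 5.05 and 6.05.

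EN2, which patterns the midbrain and hindbrain, was closed at its start but had a low region 9082 bp upstream of it, chr7:155448438-155449047, inside the noncoding EN2-DT. It held only 12, 19, 26 and 23 fragments at the summit, or 0.44, 1.04, 0.39 and 1.4 per M. The ratios were 1.36 (0.24 to 2.54) and 1.66 (0.79 to 2.53). At the height of the empty vector library of each pair it would have held 8.0 and 6.5 fragments in the PHF19 overexpression library, at or under the lowest peak listed there (8), so it could have a ratio only if it was higher there, and these values support nothing. Its tallest summits lay up to 304 bp apart between libraries, so the heights are not all of the same point. It falls under the height of 1 fragment per M set for the ranked genes and was named after its values were seen. EN1, its paralog, had a region 7832 bp beyond its upper end at 2.23, 2.25, 1.88 and 3.18 fragments per M, with ratios of 0.12 (-0.48 to 0.72) and 0.59 (0.09 to 1.07).

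MSX1, a regulator of tooth, palate and limb, was open at its start, the sequence printed above, in a region at chr4:4859245-4860522. The summit held 3.29, 5.38, 2.96 and 4.89 fragments per M, both PHF19 overexpression libraries above both others. Its ratios were 0.82 (0.39 to 1.25) and 0.56 (0.16 to 0.94), while the medians of its surroundings were 0.47 and 0.5, so 0.35 and 0.05 remain. DLX5, of face and bone, had a region at 0.95, 1.65, 1.14 and 1.53 fragments per M, with ratios of 0.9 (0.1 to 1.72) and 0.26 (-0.46 to 0.93). ISL1 and IRX5, the tall regions given above, differed little, at -0.02 and -0.2 for ISL1 and -0.01 and -0.22 for IRX5.

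POU3F2, which drives neuronal differentiation, stood on the lower side. The region upstream of its start, chr6:98828496-98829733, was at 1.97, 1.26, 2.31 and 1.34 fragments per M, with ratios of -0.53 (-1.31 to 0.19) and -0.95 (-1.66 to -0.3). A region downstream was at 1.61, 1.21, 1.41 and 1.22, with ratios of -0.3 and -0.38 whose intervals include 0. Another, 285 bp past the end of the gene, was listed in the 2 empty vector libraries alone, at 0.73 and 0.85. LHX2, of forebrain and eye, had a downstream region at 2.3, 1.7, 2.34 and 2.08 fragments per M, with ratios of -0.33 (-1.0 to 0.32) and -0.34 (-0.92 to 0.21). IRX3 was listed in the 2 IFN-prefixed libraries alone, at 0.29 and 0.79 fragments per M (19 and 13 fragments; an equal height would have given 4.7 in the second, under its lowest peak of 8), and EVX1, of spinal cord interneurons, at 0.69, 0.9 and 1.04 in all but the PHF19 overexpression library.

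Zinc finger and basic helix-loop-helix genes of the heart had several regions whose ratios were near those of their surroundings. GATA4 at chr8:11769025-11770773 stood at 7.13, 9.82, 6.15 and 9.28 fragments per M, with ratios of 0.57 (0.27 to 0.87) and 0.43 (0.15 to 0.7). A region inside GATA4, chr8:11736058-11736822, stood at 3.29, 4.28, 3.2 and 4.82, with ratios of 0.49 (0.03 to 0.94) and 0.42 (0.03 to 0.8). The surroundings had medians of 0.44 and 0.45, which leaves 0.13 and -0.02 for the first and 0.05 and -0.02 for the second. Elsewhere in GATA4, chr8:11746276-11746956 stood at 1.39, 2.52, 1.43 and 1.83, with ratios of 0.97 (0.32 to 1.63) and 0.19 (-0.45 to 0.8). The lower chr8:11685542-11686203 was not listed in the empty vector library and held 19, 31 and 23 fragments in the others, or 1.04, 0.47 and 1.4 fragments per M. The IFN empty vector height would have given 7.7 fragments with IFN PHF19 overexpression, under the lowest peak listed, so no ratio is read there. HAND1, of heart and placenta, had a region on each side of the gene. The one at chr5:154467478-154468450 stood at 2.12, 3.73, 2.5 and 4.15 fragments per M, with ratios of 0.93 (0.4 to 1.46) and 0.56 (0.13 to 0.98). The one at chr5:154487207-154488237 stood at 2.08, 2.96, 1.93 and 3.6, with ratios of 0.62 (0.06 to 1.18) and 0.74 (0.26 to 1.19). Around HAND1 the medians were 0.64 and 0.48, leaving 0.28 and 0.08 for the first and -0.02 and 0.26 for the second. The MSX1 start, both HAND1 regions and the first 2 GATA4 regions thus lay within 0.1 of their stretch of chromosome in at least 1 pair, while the VAX2 end and the FOXD1 start lay at least 0.88 from theirs in both.

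**Figure D4:**
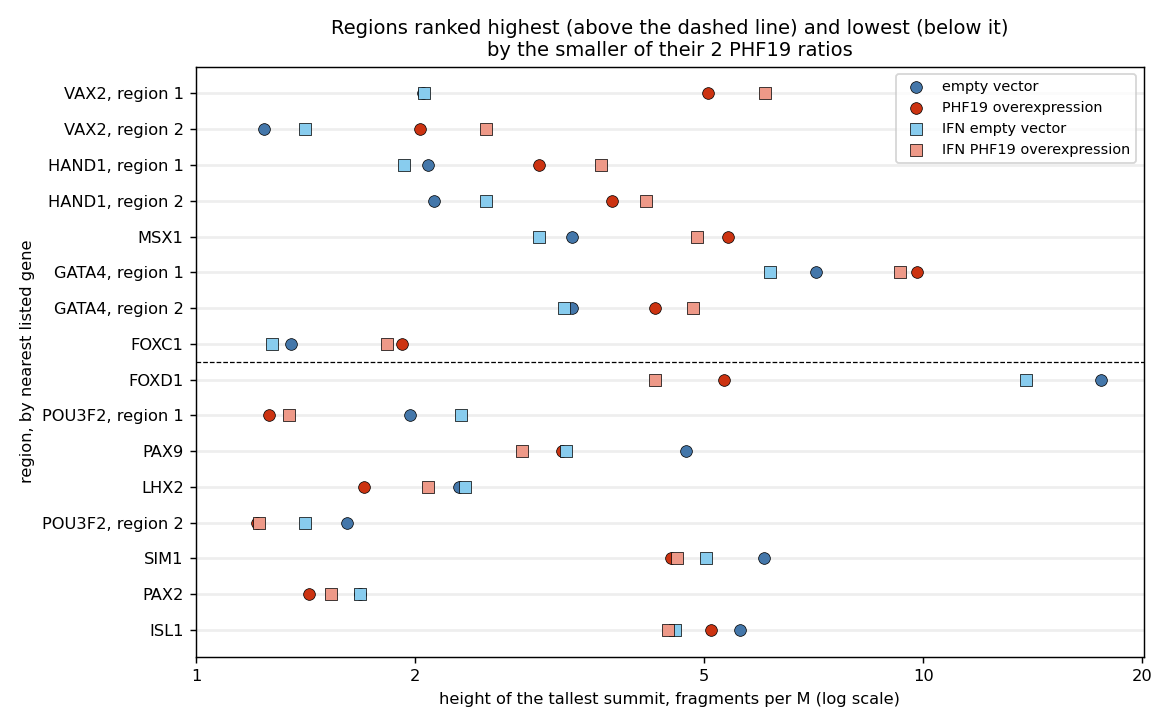
Height in each library (x axis, fragments per M, log scale) for the 8 regions ranked highest and the 8 ranked lowest by the smaller of their 2 PHF19 ratios (y axis); red marks PHF19 overexpression, blue empty vector, squares the IFN-prefixed libraries. In the upper 8 rows both red marks lie right of both blue ones, FOXD1 shows the widest gap the other way, and at ISL1 the colours mix.

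Several genes were read in counts too small for a ratio in both pairs. WT1, of kidney and gonad, had a peak 1373 bp outside the gene in the 2 PHF19 overexpression libraries (9 and 10 fragments, 0.49 and 0.61 per M) and in neither empty vector library. SOX17, of endoderm and blood vessels, did likewise (9 and 13 fragments, 0.49 and 0.79 per M), at a region that reaches an end of an uncharacterised locus. At the IFN empty vector library's depth those heights would have given 40.2 and 52.3 fragments, above its lowest peaks of 16. In the empty vector library the unprefixed heights would have given only 13.5 fragments each, close to its lowest peak of 10. Regions with a peak in both PHF19 overexpression libraries and neither empty vector library numbered 2 here and 430, or 0.58%, over all regions. The reverse pattern held at 9 listed regions, in PAX2, PAX7, TBX3, LHX9, ISL1, OTX2, POU3F2, FOXA1 and FOXD1, and at 8.64% of all regions. Of these the FOXD1 region was the tallest, and the OTX2 one (forebrain and eye) had 16 and 26 fragments. At equal height those of PAX2, PAX7, TBX3, LHX9 and OTX2 would have given 8.0 to 11.3 fragments with PHF19 overexpression. With IFN PHF19 overexpression they would have given 6.0 to 8.7. The lowest peaks listed in both libraries had 8, so these absences are not read as losses. The values were 10.0 and 10.4 for FOXA1, 13.3 and 13.9 for POU3F2, 22.6 and 17.1 for ISL1, and 67.9 and 60.6 for FOXD1.

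Counted by gene, 5 listed genes had a window peak with PHF19 overexpression and none with empty vector, NEUROD1, OLIG2, SOX2, SOX17 and WT1, against 1.42% of all protein-coding genes. TBX3, EVX1, OTX2 and FOXA1 were the 4 with one in the empty vector library alone, against 2.4%. In the IFN-prefixed pair SOX17 and WT1 were the 2 on the PHF19 side (0.34% of all genes). TBX5, OTX2, HAND2, FOXA1 and FOXA2 were the 5 on the empty vector side (5.14%), with 19 to 42 fragments in a library of 65.9 M. NEUROD1, OLIG2 and SOX2, regulators of neurons, oligodendrocytes and neural progenitors, were absent from the list of the empty vector library but present in both IFN-prefixed libraries. OLIG2 had 28 fragments with PHF19 overexpression (1.54 per M), 60 in the IFN empty vector library (0.91) and 16 with IFN PHF19 overexpression (0.98).

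Paired-box genes varied from region to region. PAX2, of kidney and eye, had 8 regions and no peak at its start. The one at chr10:100743533-100746100 stood at 3.36, 5.1, 3.26 and 4.58 fragments per M, with ratios of 0.71 (0.28 to 1.14) and 0.32 (-0.08 to 0.71). The region at chr10:100826831-100829393 stood at 3.33, 3.57, 2.34 and 5.13, with ratios of 0.21 (-0.27 to 0.69) and 0.97 (0.57 to 1.36). The interval was clear of 0 in the unprefixed pair alone at the first and in the IFN-prefixed pair alone at the second. At both regions the intervals of the pairs overlap, so no difference between the pairs is read there. The PAX2 region upstream of the start had ratios of -0.13 and -0.31. PAX8, of thyroid and kidney, had its taller region at 1.94, 2.8, 2.38 and 3.42, with ratios of 0.64 (0.06 to 1.22) and 0.35 (-0.11 to 0.8). PAX9, of tooth and thymus, lay on the other side, at 4.71, 3.18, 3.23 and 2.81, with ratios of -0.46 (-0.93 to 0.0) and -0.37 (-0.86 to 0.1). PAX3 and PAX7, of muscle precursors, had 5 and 3 regions, none with a peak in all 4 libraries.

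T-box genes gave no common direction. TBX2, of heart and limb, had 3 regions with a peak in all libraries, at 2.56 to 3.84 fragments per M. The one at the gene's upper end, chr17:61409371-61410290, with its summits beyond that end, stood at 3.11, 3.57, 3.22 and 2.56, with ratios of 0.31 (-0.18 to 0.79) and -0.49 (-1.01 to -0.01), which point opposite ways with overlapping intervals. Below the gene's lower end by 4528 bp, chr17:61394852-61395315 was not listed in the empty vector library and stood at 0.93, 0.61 and 1.53 in the others, a ratio of 1.16 (0.38 to 1.92) in the IFN-prefixed pair. At equal height it would have held 9.9 fragments with IFN PHF19 overexpression, near the lowest peak of 8 there. A much lower value could not have been listed. TBX3, of limb and mammary gland, had a region at 1.28, 1.17 and 1.65 in all but the PHF19 overexpression library, and TBX5, of heart and forelimb, a single peak of 21 fragments in the IFN empty vector library.

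Over the list as a whole, 32 regions had a ratio in the unprefixed pair, with a median of 0.34 (interval from the ranks of the regions -0.02 to 0.62). At least 1.5-fold higher were 11, against 12.8% of all regions, and at least 1.5-fold lower were 2, against 9.16%. In the IFN-prefixed pair 44 regions had a median of 0.17 (-0.05 to 0.42), with 11 at least 1.5-fold higher (11.8% of all) and 3 lower (11.0%). Of these 11, 5 could be listed with IFN PHF19 overexpression only if they were higher there, as at EN2. In the unprefixed pair this held for 1 of the 11. With 1 library a group, neither the counts nor the medians of either pair are read as support. The 11 regions make up 34.4% of the first set. The median over all regions is 0 by construction, and over the regions away from gene starts it was 0.04 and 0.0. With the local median removed, the listed regions' medians were 0.17 and 0.08, and 7 of the 32 were 1.5-fold higher in the unprefixed pair. Some listed regions averaged 1 fragment per M or more over the libraries. Of these, 10 of 27 were at least 1.5-fold higher in the unprefixed pair, against 9.8% of all such regions, and 1 lower, against 9.7%. In the IFN-prefixed pair 5 of 29 were higher, against 6.5%, and 3 lower, against 11.8%. Regions are not independent replicates, and neighbouring ones share a gene and a stretch of chromosome.

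Of the 29 regions with a peak in all 4 libraries, 4 were at least 1.5-fold higher in both pairs, 2 at VAX2, 1 at HAND1 and 1 at EN2, against 4.15% of all such regions. Without regions that averaged under 1 fragment per M, which leaves EN2 out, it was 3 of 27, against 3.45%. The FOXD1 start was the single one lower in both, against 5.37%. Removing the local median leaves 2 in the first count, the VAX2 end and EN2, and a 2-fold limit leaves the same 2. Both PHF19 overexpression heights exceeded both empty vector heights in 16 of the 29, against 26.4% of all regions with a peak in all libraries, and lay below both in 7, against 23.7%. Intervals were clear of 0 in the same direction in both pairs for 8 regions on the higher side, at MSX1, VAX2, HAND1 and GATA4 and at EN2, where the lowest listed peak fixed the direction, and for FOXD1 on the lower. No region had them clear of 0 in opposite directions. The share of all regions with such intervals is not given here, so these counts are not read as a result about the list.

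**Figure D5:**
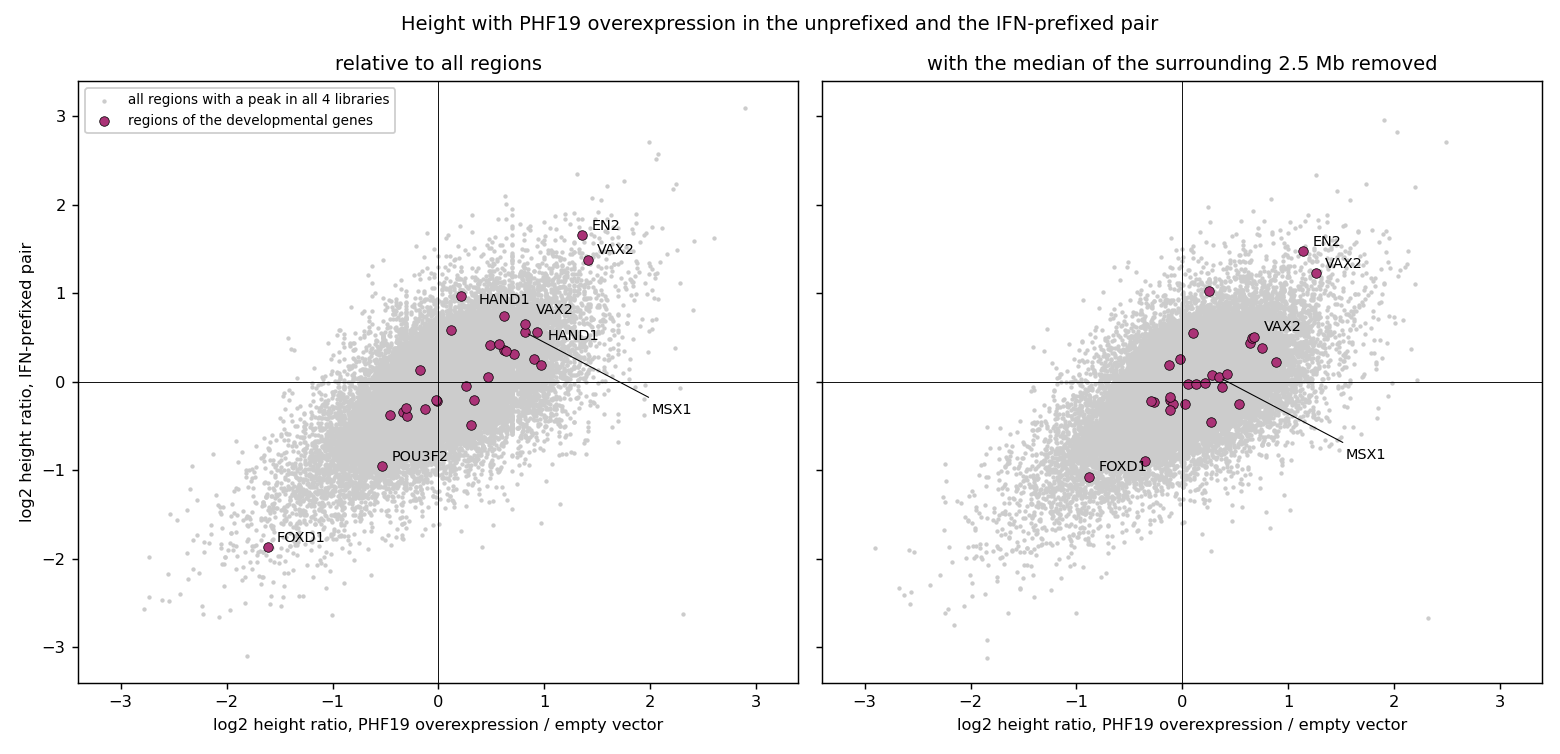
Log2 height ratio with PHF19 overexpression in the unprefixed pair (x axis) and in the IFN-prefixed pair (y axis) for the 29 listed regions with a peak in all libraries (purple) over all 35731 such regions (grey), before and after removal of the median of the surrounding 2.5 Mb. VAX2 and EN2 stay at the upper right and FOXD1 at the lower left in both panels, while MSX1 moves to 0.35 and 0.05. The direction at EN2 was fixed by the lowest listed peak.

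The IFN prefix came with smaller differences than PHF19 overexpression, at these genes as over all regions. IFN empty vector against empty vector had a median of -0.05 over 47 regions, 2 at least 1.5-fold higher (6.22% of all regions) and 1 lower (1.81%). The 2 were at LHX9 (0.92, interval -0.09 to 2.08, from 10 and 43 fragments) and PAX3 (0.66, -0.29 to 1.72). The 1 was at TBX3 (-0.6, -1.57 to 0.41), and these intervals all include 0. IFN PHF19 overexpression against PHF19 overexpression had a median of -0.06 over 38 regions, with 1 higher (6.65%) and 3 lower (3.64%). The higher one was at TBX2 (0.6, -0.35 to 1.58). The lower ones were at OLIG2 (-0.77, -1.75 to 0.17), PAX7 (-0.68, -1.75 to 0.34) and another TBX2 region (-0.59, -1.19 to -0.01). Of these intervals, only the last leaves out 0. Both comparisons share their libraries with the PHF19 comparisons above. For VAX2 at its lower end they gave 0.1 and 0.15, for the FOXD1 start -0.26 and -0.43, and for MSX1 -0.07 and -0.25.

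Other developmental transcription factors, a list of 112 genes that are not members, give the wider setting. A start peak in at least 1 library was found for 21 of the 77 with a promoter entry, or 27.3%. Their regions had median ratios of 0.16 over 107 regions and 0.21 over 116. At least 1.5-fold higher were 21 and 20, or 19.6% and 17.2%, against 12.8% and 11.8% of all regions. Lower were 5 in each pair, or 4.7% and 4.3%, against 9.16% and 11.0%. Of 104 regions with a peak in all libraries 9 were 1.5-fold higher in both pairs (8.65%, against 4.15%) and 3 lower (2.88%, against 5.37%). How many of them could be listed only if higher was not counted, so these values are not read as support. LHX5 (brain patterning) had ratios of 1.53 (0.53 to 2.59) and 1.58 (0.89 to 2.26), and LHX1 (kidney and brain) 0.88 (0.21 to 1.56) and 1.0 (0.39 to 1.58). The LHX5 region was low, at 0.51, 1.37, 0.64 and 2.14 fragments per M. Its empty vector heights lay near the lowest listed with PHF19 overexpression and IFN PHF19 overexpression, 0.44 and 0.49 per M. TBX20, of the heart, was lower, at -1.28 (-2.24 to -0.41) and -0.77 (-1.58 to -0.04). The 35 genes of the Polycomb complexes themselves were open at their starts in 27 of the 31 with an entry, and their regions had medians of -0.13 and -0.07.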

How the data were processed

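Peaks were called for each library separately with MACS2 2.1.2 on paired fragments without a control, at a q of 0.01 and with duplicates kept, per the file headers. Further names in the submitters' processing notes are bcl2fastq 2.17, Trimmomatic 0.38, DiffBind and the build hg38; which aligner was run is not given in the sources used here. Values of height start from the signal the authors deposited, an unscaled pileup of whole fragments at each summit. From the deposited column of −log10 q-value came ranks and a stricter filter within a list. The −log10 p-value and the fold enrichment (ratio) that the authors deposited entered no value.

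Summits were collapsed to 1 peak per interval, peaks on chromosomes 1 to 22 and X (all but 3 to 9 lines per list) were merged over libraries where they overlap by at least 1 bp, and the tallest pileup was divided by the fragments in M in the file header. Genes and promoters came from RefSeq tables on GRCh38.p14; all 43 genes matched by symbol, and 31 had a promoter entry. Ratios were centred by subtracting the median ratio over every region listed in the 2 libraries compared. Intervals are exact (Clopper-Pearson) at 95%. Local medians used 2.5 Mb on either side. Values in every library are given for the 8 regions per direction ranked by the smaller of their 2 PHF19 ratios (mean height 1 fragment per M or more), for the 6 tallest genes, and for genes one-sided in both pairs; further genes were named after their values were seen. Some genes of the comparison lists are not reported here. The genes and lists were chosen with earlier results of these data known. Scripts in Python 3.11.15 with scipy 1.17.1 were tested on simulated data.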

Additional observations from a re-analysis of the deposited data

How the results depend on the processing

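With 1 library per group no replicate could be left out. Alternatives are given where they moved a value beyond its interval or a count by over 1.5 times, and the cause was not tested except where fewer regions were counted. With the gene body alone as window, genes with a peak numbered 12 with empty vector, 13 with PHF19 overexpression, 17 with IFN empty vector and 13 with IFN PHF19 overexpression. One-sided genes in the unprefixed pair were then 2 for PHF19 overexpression and 1 for empty vector, and in the other pair 0 for PHF19 overexpression. Regions at least 1.5-fold higher were 6 of 15 and 5 of 19, and lower 1 in each pair. A q of 1e-05 left 3 genes on the PHF19 side of the unprefixed pair. Lists of equal length, 44090 peaks each, left 1 gene on the empty vector side of the IFN-prefixed pair. Removing the local median left 7 regions at least 1.5-fold higher in the unprefixed pair and 2, EN2 among them, in both pairs. It turned the second HAND1 region to -0.02 in the unprefixed pair and both GATA4 regions to -0.02 in the IFN-prefixed pair. It also moved the FOXD1 start to -0.88 in the unprefixed and -1.07 in the IFN-prefixed pair. In that order MSX1 moved to 0.35 and 0.05, and the first HAND1 region to 0.28 and 0.08. The second HAND1 region moved to 0.26 in the IFN-prefixed pair, and GATA4 at chr8:11769025-11770773 to 0.13 in the unprefixed pair. Keeping regions that average 1 fragment per M or more left 1 region lower in the unprefixed and 5 higher in the IFN-prefixed pair. A fold of 2 left 2 regions, EN2 among them, higher in both pairs, and no centring gave 2 lower in both. The other 73 summary values kept within these limits, including all medians. In libraries of 16.4 and 18.2 M fragments, regions under about 1 fragment per M rest on fewer than 20 fragments.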
